A study of Mus musculus with 4 samples.

Results

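The genes of Yap, Taz, the Tead factors and the angiomotins were followed in hearts of mouse embryos with a conditional knockout of Salvador (Sav1), a scaffold protein of the Hippo pathway. The 10 genes were taken by name (Yap1, Wwtr1, Tead1, Tead2, Tead3, Tead4, Vgll4, Amot, Amotl1 and Amotl2), and 15 of the 29922 array probes carried one of these symbols as their only gene. They stand beside 16675 genes tested in all. RNA came from whole hearts dissected at embryonic day 9.5 from a C57bl/6 x129 hybrid strain, and each sample was a pool of hearts. There were 2 pools labelled wild-type, called controls here, and 2 labelled Salv CKO, in which Salvador was knocked out conditionally. The sources used here give neither the number of hearts in a pool nor the Cre driver behind the knockout. Nothing says how the pools were made up from litters, so the p-values measure only the spread between these pools. RNA was amplified, coupled to the dye Cy5 and hybridised to 1 single-colour array per pool. The study compared the groups to find genes under Hippo control in the forming heart.

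In the Hippo pathway a kinase chain, in which Mst kinases bound to Salvador activate the Lats kinases, phosphorylates the coactivators Yap and Taz and holds them in the cytoplasm. Unphosphorylated Yap and Taz enter the nucleus, where they have no DNA contact of their own and act through the Tead transcription factors. Vgll4 competes with Yap for Tead, and angiomotins tether Yap and Taz at cell junctions and at actin. In the embryonic heart this output drives division of heart muscle cells. The control of Yap and Taz acts largely on the proteins, and the arrays read only the RNA.

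The clearest difference among the 10 genes was a lower level of Vgll4, the Tead competitor, which fell 1.35-fold in the Salv CKO pools. It was the only member that passed the test (limma, Benjamini-Hochberg adjusted p under 0.05 over all genes). Yap1, Amotl2 and Amot had higher means in Salv CKO, and Wwtr1 (Taz), Tead3 and Amotl1 had lower ones, each short of that threshold. The groups overlapped for Tead2. Tead1 and Tead4 were not above background on any array. In counts, 1 of 10 genes was called lower, where 5.7% of all genes were, and 0 of 10 were called higher, where 4.92% were. At an unadjusted limma p under 0.05 there were 7 of 10, 3 higher and 4 lower, against 26.7% of all genes (12.6% and 14.2%). That count moved with the setting. Without limma's intensity trend it was 1 higher and 1 lower, against 1681 and 1897 of the 16675 genes. It was 2 and 2 with the mean of a gene's probes (1880 and 2150 of all genes). With the values as deposited it was 0 and 5 (527 and 5077 of all genes). The pools of the 2 groups did not overlap for 7 members (3 higher, 4 lower), against 54.2% of all genes (25.2% higher, 29% lower). The median difference over the 10 genes was -0.12 (log2), beside -0.04 over all genes. With 2 pools a group, p = 0.333 is the smallest value an exact permutation test of a single gene can reach, and the calls depend on limma's pooling of the spread over genes.

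All levels below are log2 intensities after quantile normalisation of the 4 arrays, and a difference is Salv CKO minus control with the standard error of limma and n = 2 pools per group. A probe counted as above background over an intensity of 16 (log2 4), where noise on the arrays had an SD of 4.36 to 6.28 in intensity. Median deposited intensities were 71.1 to 101 over the arrays. Sav1 itself was at 9.56 and 9.30 in the controls and at 9.19 and 9.13 in Salv CKO, a difference of -0.27 ± 0.13 that did not pass (limma adjusted p = 0.266). It was -0.14 without the first control array and -0.40 without the second, and with the values as deposited it was -0.72 and passed (limma adjusted p = 0.0199). In that setting the median over genes above background was -0.44, and 18.6% of all genes were called lower. The sources used here do not place the Sav1 probe inside or outside the deletion, so it does not check the labels. Of 14 heart muscle markers, 13 were measured and each was above background on all 4 arrays.

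**Figure D1:**
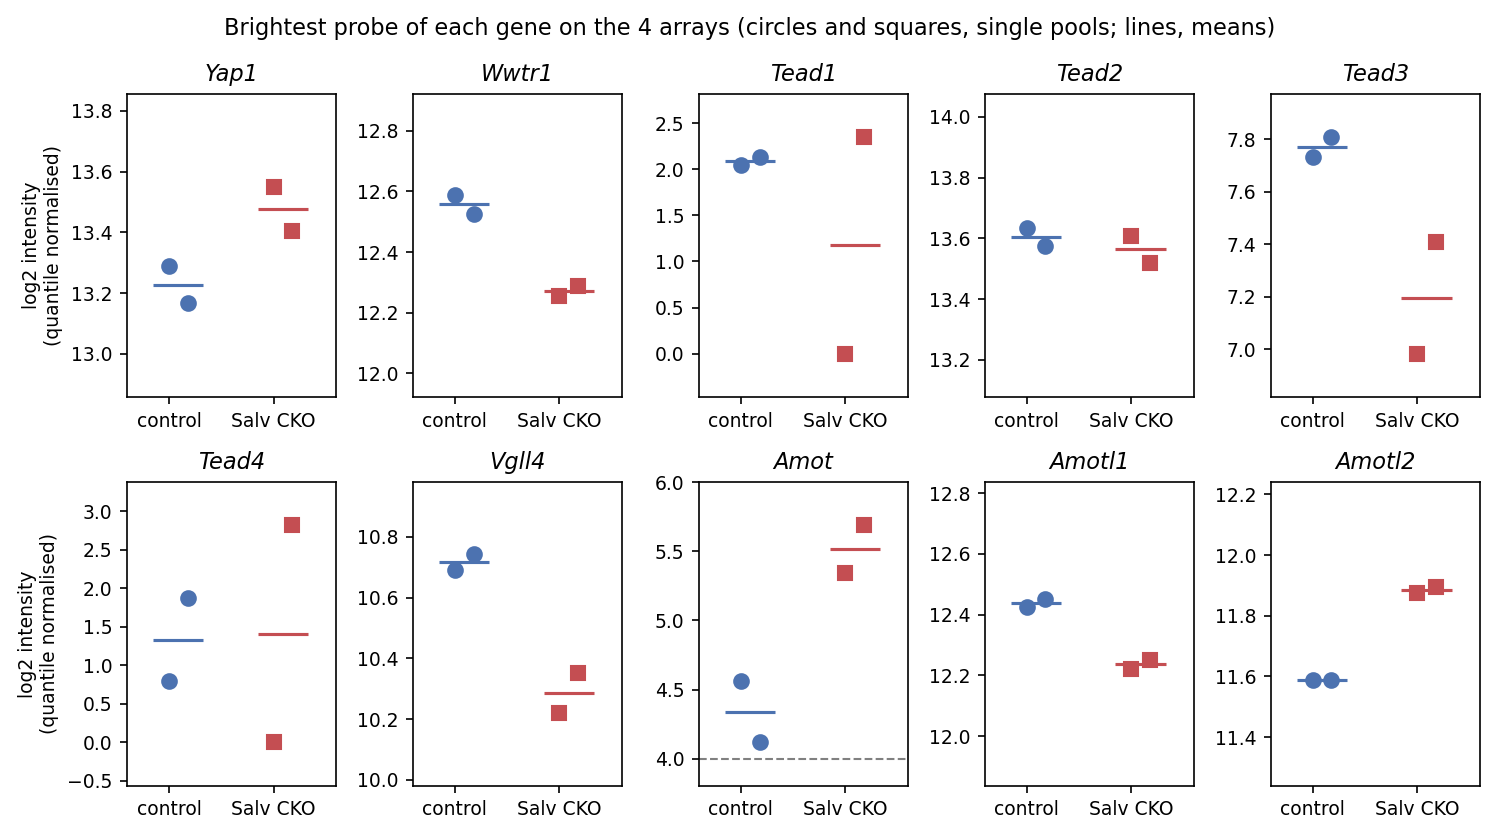
Log2 intensity (quantile normalised) of the brightest probe of each gene, with a point for each pool, a line for each group's mean and a dashed line at the background limit of log2 4 where it falls in range. The vertical axes differ between panels: Vgll4, Wwtr1, Tead3 and Amotl1 lie lower in both Salv CKO pools, Yap1, Amot and Amotl2 lie higher, and Tead1 and Tead4 lie below the limit throughout.

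Among the coactivators, Yap1, the transcriptional coactivator at the end of the pathway, was read by 1 probe. Its deposited intensities were 10874 and 11383 in the controls and 9875 and 8998 in Salv CKO. After normalisation these became log2 13.29 and 13.17 in the controls and 13.55 and 13.40 in Salv CKO. Both Salv CKO pools thus lay above both controls after normalisation and below both as deposited. The normalised difference was 0.25 ± 0.085 (95% confidence interval 0.028 to 0.47), which did not pass (limma adjusted p = 0.147).

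Wwtr1, which encodes the Yap paralog Taz, was read by 3 probes that did not share a direction. Its brightest probe went from 12.59 and 12.53 in the controls to 12.26 and 12.29 in Salv CKO, with no overlap between the groups. The difference of -0.28 ± 0.066 (95% confidence interval -0.46 to -0.11) fell just short of the threshold (limma adjusted p = 0.0628). It passed under the other 3 scalings (adjusted p = 0.00934 to 0.0456) and where only genes above background on all 4 arrays were tested (0.0428). Of all genes, 11% were called lower with median centring and 18.6% as deposited. The Wwtr1 difference did not pass with a floor of 16 (limma adjusted p = 0.0709) or without the intensity trend (0.281). A second probe, dimmer but above background on every array, gave 9.49 and 9.64 in the controls and 9.61 and 9.74 in Salv CKO. The groups overlapped on this probe, and its difference was 0.11 ± 0.11 (95% confidence interval -0.17 to 0.38; limma adjusted p = 0.620 over all probes). The dimmest probe was above background on 2 arrays only, 1 of each group, and gave 0.36 ± 0.76. The lower level of Wwtr1 was therefore a reading of 1 probe of 3. None of the 5 further probes of the members was called by limma in the fit over all 29922 probes, where 6.3% were, and none had an unadjusted p under 0.05. The sources used here do not say which exons the probes cover.

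Of the Tead factors, the DNA-binding partners of Yap and Taz, Tead2 and Tead3 were measurable. Tead2, known for its expression in early embryos and neural progenitors, stood at 13.63 and 13.57 in the controls and at 13.61 and 13.52 in Salv CKO. These ranges overlapped, and the difference of -0.04 ± 0.069 had a 95% confidence interval of -0.22 to 0.14, which leaves room for a small change in either direction. Tead3 was far dimmer, at 7.73 and 7.81 in the controls and 6.98 and 7.41 in Salv CKO. The groups did not overlap, but the Salv CKO pools lay far from each other, and the difference of -0.58 ± 0.21 did not pass (limma adjusted p = 0.169). Tead1, which binds the M-CAT element of heart muscle promoters, and Tead4, known for its part in the trophectoderm, had 1 probe each. Normalised intensities were 1 to 5.1 for Tead1 and 1 to 7.03 for Tead4, under the limit of 16 on all 4 arrays, so neither gene had a measured level or a fold change here.

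Whether the members' own promoters hold the letters that Tead factors bind was read from the RefSeq promoter table (build GRCm38.p6), over the 250 bases before each listed start. The core of the M-CAT element, GGAATG, was searched on both strands, its reverse complement being CATTCC. The table held windows for 8 of the 10 genes, all but Tead1 and Tead4. The motif was present for 5 of them (Yap1, Wwtr1, Tead3, Vgll4 and Amotl2), and absent from the windows of Tead2, Amot and Amotl1. Of all genes with a window, 14.4% had it in at least 1 of theirs, as had 13.4% of the tested genes, and genes with several windows (3 for Tead3, 2 for Wwtr1) have more chances to hold it. In windows, it was in 7 of the 11 of these 8 genes, of which the 2 of Wwtr1 overlap and share it. Over all 32851 windows of that length 12.6% held it. A match is a description of the sequence and shows no binding. The 4 windows below belong to the coactivators and to the members with the lowest p in each direction, Vgll4 and Amotl2, with the motif in capitals. The window of Yap1 lies at chr9:8004597-8004846 (minus strand) and that of Wwtr1 at chr3:57575911-57576160 (minus strand). Those of Vgll4 and Amotl2 lie at chr6:114969204-114969453 (minus strand) and chr9:102717554-102717803 (plus strand). The motif starts 141 bases before the start of Yap1, 136 before that of Wwtr1, 82 before that of Vgll4 and 65 before that of Amotl2, and it is read on the gene's own strand in all but Amotl2.
Yap1: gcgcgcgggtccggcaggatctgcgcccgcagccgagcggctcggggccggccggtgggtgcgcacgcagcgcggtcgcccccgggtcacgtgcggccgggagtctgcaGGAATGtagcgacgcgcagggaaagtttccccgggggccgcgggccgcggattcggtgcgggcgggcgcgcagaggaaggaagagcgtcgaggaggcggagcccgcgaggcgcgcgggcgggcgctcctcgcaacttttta
Wwtr1: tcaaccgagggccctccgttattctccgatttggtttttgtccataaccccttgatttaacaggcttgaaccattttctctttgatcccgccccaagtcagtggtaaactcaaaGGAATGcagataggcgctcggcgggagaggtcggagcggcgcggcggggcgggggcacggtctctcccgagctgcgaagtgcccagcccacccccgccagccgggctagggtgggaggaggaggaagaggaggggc
Vgll4: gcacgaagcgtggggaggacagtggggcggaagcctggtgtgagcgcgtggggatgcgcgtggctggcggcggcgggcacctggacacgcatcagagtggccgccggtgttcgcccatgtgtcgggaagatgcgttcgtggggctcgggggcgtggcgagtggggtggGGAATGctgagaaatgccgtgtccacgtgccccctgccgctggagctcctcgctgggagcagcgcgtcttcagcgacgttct
Amotl2: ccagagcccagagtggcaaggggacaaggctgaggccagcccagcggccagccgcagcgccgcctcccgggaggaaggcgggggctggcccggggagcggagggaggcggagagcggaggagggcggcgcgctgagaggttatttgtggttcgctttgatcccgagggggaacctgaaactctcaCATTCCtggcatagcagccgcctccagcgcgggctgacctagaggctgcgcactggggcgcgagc
The motif thus stood before genes with a higher mean in Salv CKO (Yap1, Amotl2) and before genes with a lower one (Wwtr1, Tead3, Vgll4).

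Vgll4 holds a pair of Tondu domains by which it binds Tead factors in place of Yap, and it is known to restrain Yap in heart muscle. Its single probe read 10.69 and 10.74 in the controls and 10.22 and 10.35 in Salv CKO. The pools of each group lay closer to each other than to any pool of the other group. Group means were 10.72 ± 0.035 (SD, n = 2) and 10.29 ± 0.093 (SD, n = 2), and the difference of -0.43 ± 0.088 (95% confidence interval -0.66 to -0.20) passed the test (limma adjusted p = 0.0465). The deposited intensities, 1784 and 2143 in the controls against 983 and 1095 in Salv CKO, lay in the same order. The direction was the same under 15 of 15 alternative settings, and the call held under 8 of them (adjusted p = 0.0106 to 0.0389). It was lost when any 1 of the 4 arrays was left out (adjusted p = 0.189 to 0.244), as was the call of every other gene, with the floor on low values raised to 16 (0.0864), without the intensity trend (0.200) and where genes entered as the mean of their probes (0.0542). In the fit over all 29922 probes the adjusted p of Vgll4 was 0.0621.

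Genes whose values followed Vgll4 most closely over the 4 arrays, after each was centred on its own mean, were Man1b1, an alpha-mannosidase of the endoplasmic reticulum (root mean square distance 0.0079 log2), Pomgnt1, a glycosyltransferase of dystroglycan (0.0081), and the putative helicase Dhx34 (0.0093). Among 11079 genes searched, 855 lay within 0.1, so that pattern was common on these arrays.

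Angiomotins are scaffold proteins that bind the WW domains of Yap and Taz. Amotl2, also known as a gene that Yap itself induces in several cell types, read 11.587 and 11.588 in the controls and 11.87 and 11.89 in Salv CKO. Its deposited intensities were 3361 and 3884 in the controls and 3061 and 3120 in Salv CKO, so the controls lay less close before normalisation. After it, the pools of each group lay almost on top of each other, and the groups did not overlap. The difference was 0.30 ± 0.066 (95% confidence interval 0.13 to 0.47), with a limma adjusted p of 0.0565. It passed where only genes above background on all 4 arrays were tested (adjusted p = 0.0455) and with a floor of 16 (adjusted p = 0.0434). Under the other scalings it did not: the difference was 0.044 with median centring (limma adjusted p = 0.869), 0.19 with the 75th percentile (0.190) and -0.23, in the opposite direction, as deposited (0.277).

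Amotl1 lay in the opposite direction. Its brightest probe was at 12.42 and 12.45 in the controls and at 12.22 and 12.25 in Salv CKO, a difference of -0.20 ± 0.064 with no overlap (limma adjusted p = 0.125). Its other probe, at 8.74 and 8.90 in the controls, gave 8.004 and 8.73 in Salv CKO, a difference of -0.45 ± 0.26 (limma adjusted p = 0.418 over all probes). Both probes were lower in both Salv CKO pools, and the second was much more scattered.

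Amot, the founding member of the family, was close to background on all of its 3 probes. The brightest had deposited intensities of 22.3 and 21.4 in the controls and of 34.1 and 49.4 in Salv CKO. On the normalised scale these were 4.56 and 4.12 against 5.34 and 5.69, with no overlap. The difference of 1.17 ± 0.41 was the largest of the members above background, but its 95% confidence interval ran from 0.11 to 2.24 and it did not pass (limma adjusted p = 0.156). The other probes gave 1.10 ± 0.66 and 0.63 ± 0.80, the first above background on 3 arrays and the second on none. Amot was the only member above background whose mean was also higher in Salv CKO with the values as deposited.

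**Figure D2:**
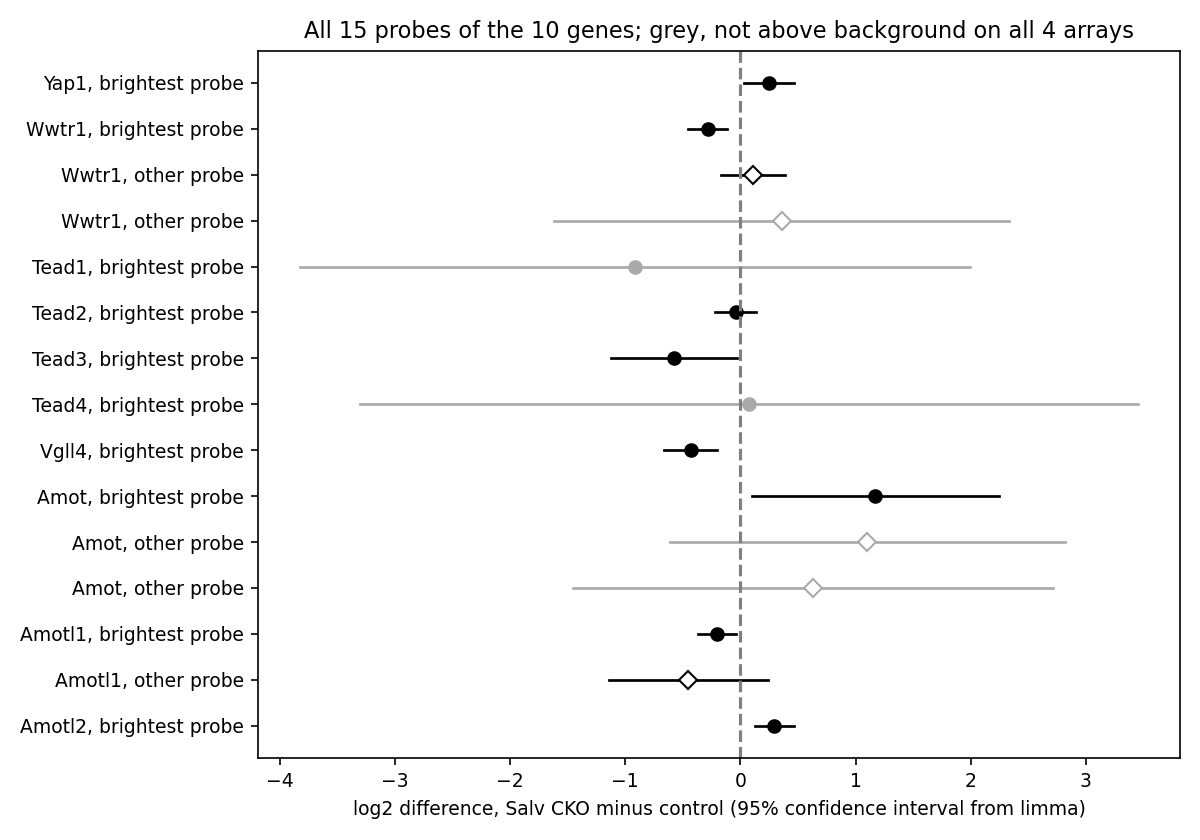
Log2 difference, Salv CKO minus control, of all 15 probes with the 95% confidence interval of limma; filled circles are the brightest probe of each gene, open diamonds the others, and grey marks probes not above background on all 4 arrays. The interval of Vgll4 runs from -0.66 to -0.20, the Wwtr1 probes lie on both sides of 0, and the probes of Tead1 and Tead4 have intervals several log2 units wide.

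The direction of several members depended on how the arrays were scaled. Deposited intensities were lower overall on the Salv CKO arrays, and the median difference over 12402 genes above background was -0.44 as deposited, -0.17 after centring on array medians, -0.03 after division by the 75th percentile of each array and -0.04 after quantile normalisation. Of all calls, 46.3% were higher after quantile normalisation, 22.8% with median centring, 40.6% with the 75th percentile and 6.88% as deposited. With the values as deposited Yap1 was at -0.24 and Amotl2 at -0.23. Relative to the median gene they stood at 0.20 and 0.22 there, and at 0.29 and 0.34 after quantile normalisation. The other 3 scalings shift each array by a constant and so give each gene a single distance from the median. Vgll4 stood at -0.39 after quantile normalisation and at -0.47 under those, and Tead3 at -0.54 and -0.49. Wwtr1 stood at -0.24 and -0.34 and Amotl1 at -0.16 and -0.26. Tead2 was at 0.0020 and -0.097, the smallest distance of the 8 under each scaling. As deposited, 4 members were called lower (Wwtr1, Tead2, Vgll4 and Amotl1), in a setting where 3101 genes, or 18.6% of all genes, were.

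**Figure D3:**
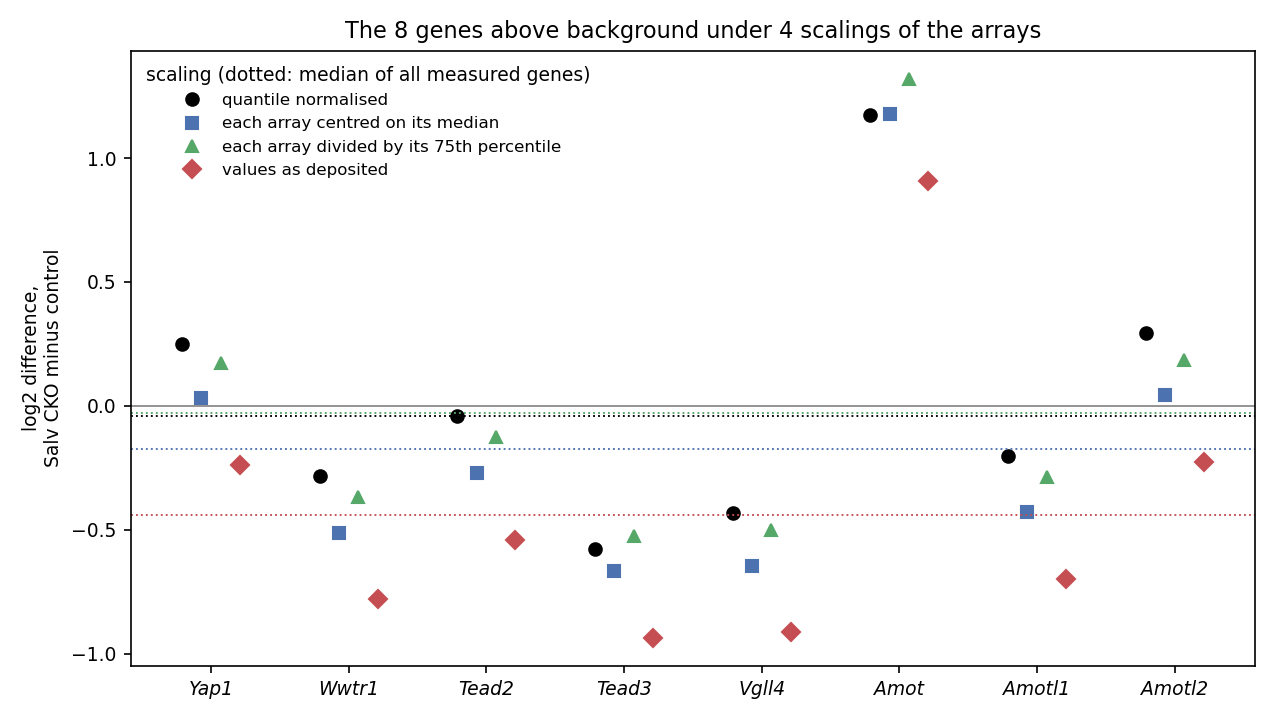
Log2 difference, Salv CKO minus control, of the 8 genes above background under 4 scalings of the arrays (markers), with the median difference of the 12402 genes above background under each scaling as a dotted line of the same colour. Yap1, Amotl2 and Amot lie above the dotted line of their own colour throughout; Wwtr1, Tead3, Vgll4 and Amotl1 lie below it.

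Ratios between members within an array are free of any factor per array, and were examined after the values had been seen. They are not free of array differences that vary with intensity. The log2 ratio of Yap1 to the brightest Wwtr1 probe, from deposited intensities, was 0.69 and 0.62 in the controls and 1.28 and 1.11 in Salv CKO, a difference of 0.54. With the second Wwtr1 probe the ratios were 3.83 and 3.51 against 3.93 and 3.63, which overlapped, so the shift between Yap1 and Taz also rested on a single probe. The ratio of Amotl1 to Amotl2 was 0.83 and 0.87 in the controls and 0.37 and 0.38 in Salv CKO, a difference of -0.47. It was lower in Salv CKO with the other Amotl1 probe as well, at -2.92 and -2.71 against -3.82 and -3.07. Vgll4 to Amotl2 went from -0.91 and -0.86 to -1.64 and -1.51, a difference of -0.69. Yap1 to Amotl2, in contrast, was 1.69 and 1.55 in the controls and 1.69 and 1.53 in Salv CKO, a difference of -0.013 that was smaller than the spread within either group. Ratios were computed between the brightest probes of every pair of members above background, and the groups did not overlap for most pairs. The exceptions were Yap1 with Amotl2, and Tead3 with each of Wwtr1, Tead2, Vgll4 and Amotl1. Separation was therefore common, and the pairs given above were picked from these. For each ratio whose groups did not overlap the exact permutation test gave p = 0.333, the smallest that 2 pools against 2 allow. No ratio thus shows an unequal change by this test, and a ratio does not say which of a pair changed.

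**Figure D4:**
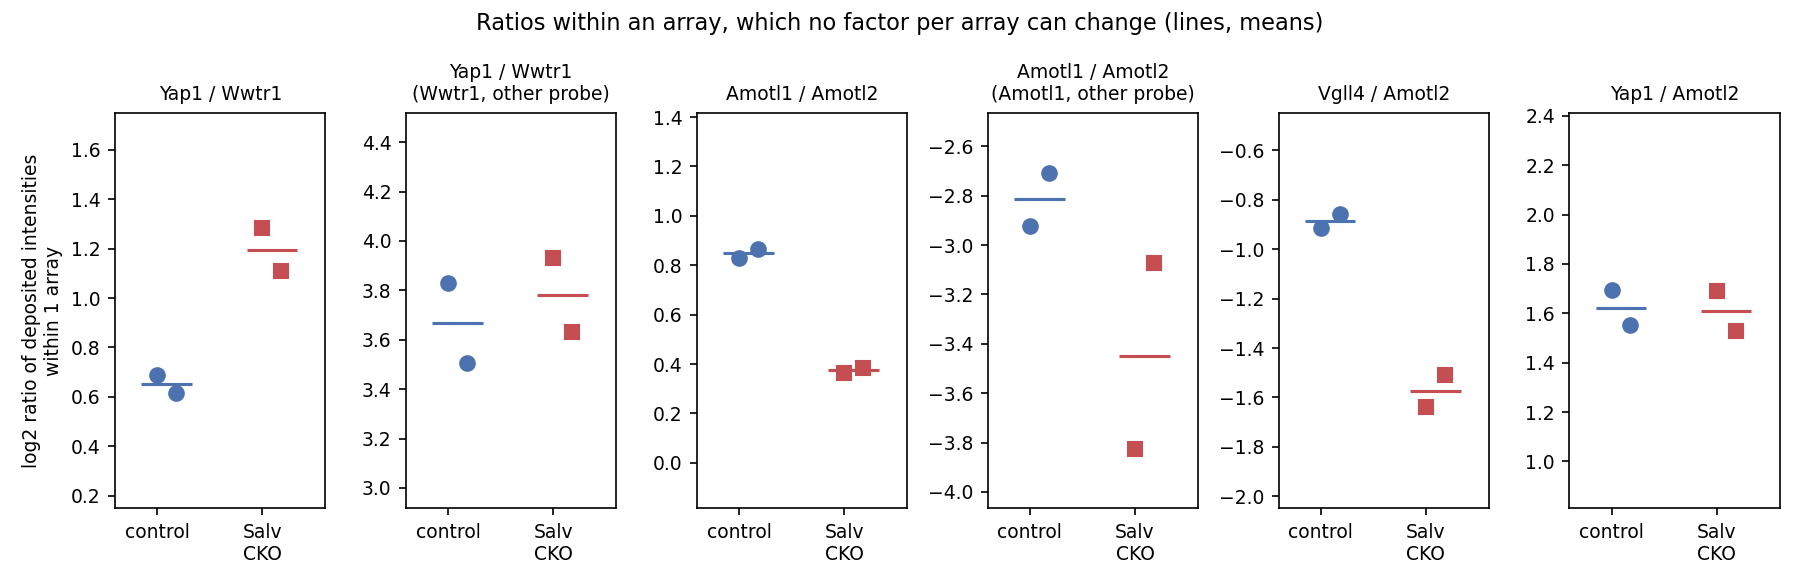
Log2 ratio of deposited intensities of member pairs within each array, with a point for each pool and a line for each group's mean; every panel spans 1.6 log2 units. The groups separate for Yap1 over the brightest Wwtr1 probe, Amotl1 over Amotl2 (both Amotl1 probes) and Vgll4 over Amotl2, and they overlap for Yap1 over the other Wwtr1 probe and for Yap1 over Amotl2.

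Genes around the members were read from lists, beside 4.92% of all genes called higher, 5.7% called lower and a median of -0.04 over all genes. Of 33 measured partners of Yap, Taz or Tead, 4 rose, 5 fell and 24 did not pass, and their median difference was -0.11. The paired box factors Pax3 and Pax8, which can bind Taz, rose by 2.14 ± 0.28 and 1.15 ± 0.14, and Parp1, a DNA repair enzyme reported to bind Tead at muscle promoters, rose by 0.87 ± 0.065 (limma adjusted p = 0.00762 to 0.0172). Pax3 also stands in the neural crest marker list, and the other probe of Parp1 gave 0.42 ± 0.20. As deposited, Pax8 was at 0.77 and Parp1 at 0.34, and neither passed (limma adjusted p = 0.0615 and 0.113). Hipk2, a kinase that can activate Yap, fell by 0.94 on the log2 scale, Fos, an AP-1 subunit that shares enhancers with Tead, by 0.90, and the WW-binding coactivator Wbp2 by 0.75 (limma adjusted p = 0.00822 to 0.0155). Outside the naming rule, and chosen after their values were seen, the remaining calls were Slc9a3r1 (0.45, but -0.055 as deposited), Ptpn21 (-0.73) and Jun (-0.46). Trp73, Runx1 and Srebf1 were not above background on any array.

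Of 22 measured partners of the angiomotins, 2 rose, 2 fell and 18 did not pass, with a median of -0.15 (4.92% of all genes were called higher and 5.7% lower). The junction protein cingulin (Cgn) rose by 1.20 ± 0.099 and the PDZ adaptor syntenin (Sdcbp) by 0.98 ± 0.080 (limma adjusted p = 0.00829 and 0.00822). The other probes of Cgn gave 0.69 and -0.40, the second not above background, and those of Sdcbp gave -0.063 and 0.19 with no call. As deposited Cgn was at 0.70 and kept its call, and Sdcbp was at 0.48 and did not (limma adjusted p = 0.0694). Lin7b, an adaptor of the Crumbs polarity complex, fell by 0.70 on the log2 scale (limma adjusted p = 0.0213). Its paralog Lin7a, named outside the rule after its value was seen, passed the test in the same direction on its brightest probe (limma adjusted p = 0.0330). That probe was above background in both controls (6.21 and 6.16) and in 1 of the 2 Salv CKO pools (4.16 and 3.56), so the size of the difference is uncertain, and another probe, above background on 1 array, gave 1.39 ± 0.84.

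Upstream of the members, 2 of 30 measured kinases and regulators rose, 4 fell and 24 did not pass, with a median of -0.13 (4.92% of all genes were called higher and 5.7% lower). Crb3, a Crumbs polarity protein of epithelia, rose by 1.14 ± 0.14 and Mob1a (listed as Mobkl1b) by 0.70 ± 0.11 (limma adjusted p = 0.0158 and 0.0267). The other probe of Mob1a, not above background on any array, gave -1.37 ± 1.26. With median centring Mob1a was at 0.46 and as deposited at 0.19, and it passed under neither (limma adjusted p = 0.0648 and 0.401), while Crb3 passed under all 4 scalings. The fallen genes were Rassf5, a Mst-binding protein (-0.76 ± 0.070), the cadherins Dchs1 (-0.58) and Fat1 (-0.44), and, named outside the rule after its value was seen, Stk4 (Mst1, -0.33), with limma adjusted p of 0.0102 to 0.0403. Each of these 4 lay lower under each of the 4 scalings.

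Of 32 measured genes known as targets of Yap and Tead, mostly from other cells and with Amotl2 among them, 6 rose, 2 fell and 24 did not pass (4.92% of all genes were called higher and 5.7% lower). Their median difference was 0.14, and 0.03, 0.17 and -0.24 with median centring, the 75th percentile and the values as deposited. The counts moved with the scaling too, to 3 higher and 4 lower with median centring, where 3.26% of all genes were called higher and 11% lower, and to 1 and 6 as deposited, where 1.37% and 18.6% were. Foxf2, a forkhead factor, Gli2, a Hedgehog effector, and the kinase Nuak2 led the risen genes (1.36, 1.02 and 0.88), although the other probe of Gli2 gave -0.046. As deposited Gli2 was at 0.50 and Nuak2 at 0.45, and neither passed (limma adjusted p = 0.0780 and 0.120). The fallen ones were the focal adhesion protein Tgfb1i1 (-1.08) and the matrix protein Ctgf (-0.41), and limma adjusted p for these 5 genes was 0.0102 to 0.0453. Ctgf, a common readout of Yap, thus lay opposite to Amotl2, another such gene, after quantile normalisation. Both were lower in Salv CKO as deposited (-0.91 and -0.23). There the median over genes above background was -0.44, so Ctgf lay below that median and Amotl2 above it. Amotl2 did not pass after quantile normalisation (limma adjusted p = 0.0565). Nor did Cyr61 (0.15), Ankrd1 (-0.08) and Axl (-0.04) of the list, named outside the rule after their values were seen (limma adjusted p = 0.473 to 0.809).

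Levels of cell type markers differed between the groups, and in whole hearts fewer cells of a type and less RNA per cell cannot be told apart. Among 13 heart muscle markers 6 were called lower, and the median difference over the list was -0.60 (log2). Myl7 (0.35), Myl4 (0.10), Actc1 (0.05) and Myl3 (0.02) had higher means and did not pass. Of the 13, Myh6, Myl2, Myl3, Myl4 and Actc1 were saturated, so their change may be understated. Saturation was here taken as at least 99% of an array's highest deposited intensity on at least 1 array. Summed intensities of the list were 0.847 and 0.862 times the control mean in Salv CKO with all 13 (0.952 and 1.05 times in the controls), and 0.727 and 0.742 times over the 8 others (0.906 and 1.09 times in the controls), a choice made after the values were seen. Myl7 made up 34.0% of the sum over these 8 in Salv CKO, and its controls lay at 14.72 and 15.63. Among 8 red cell markers 3 were called lower and the median was -0.61. The sums were 0.821 and 0.818 times the control mean, and 0.690 and 0.656 times without Hba-x, the 1 saturated member. For 9 endothelial markers, none saturated, the sums were 0.607 and 0.588 times (5 called lower, 1 higher, median -0.74). Of 10 neural markers 4 were called higher and 1 lower, with a median of 0.58. The lower one was Nes (-0.75), whose other probe gave 0.46 ± 0.31. Pax6 (0.01) and Elavl3 (-0.18) were among the 5 that did not pass. Sums of the list were 2.57 and 2.42 times the control mean, with 40% from Zic1 in Salv CKO. Those of 10 neural crest markers were 3.27 and 3.29 times (5 higher, median 1.47), but Crabp1 alone made up 90.8% of them in Salv CKO, and Erbb3 (-0.51) and Dlx2 (-0.26) had lower means and did not pass. Those of 8 somite markers were 5.81 and 5.83 times (3 higher, median 1.78), with 80.1% from Tcf15, while Tbx6 (0.12) and Mesp2 (-0.03) did not pass. For 11 endoderm and yolk sac markers the sums were 2.32 and 2.31 times (4 higher, median 0.91). For 8 epicardial and proepicardial markers they were 1.83 and 1.90 times (3 higher, median 0.40, but -0.01 as deposited). Upk3b made up 40.8% of these sums in Salv CKO, and its other probe gave -0.13 ± 0.13. Means were lower for 3 of the 8, Tbx18 (-0.80), Msln (-0.22) and Tcf21, and none of these passed. Tbx18 was above background on 1 array only, with a standard error of 0.66. Foxd3 of the crest list, Myf5 of the somite list, Epb4.2 of the red cell list, and Wt1 and Tcf21 of the epicardial list were not above background on any array. The part of these shifts in the differences of Vgll4 and the other members was not tested.

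**Figure D5:**
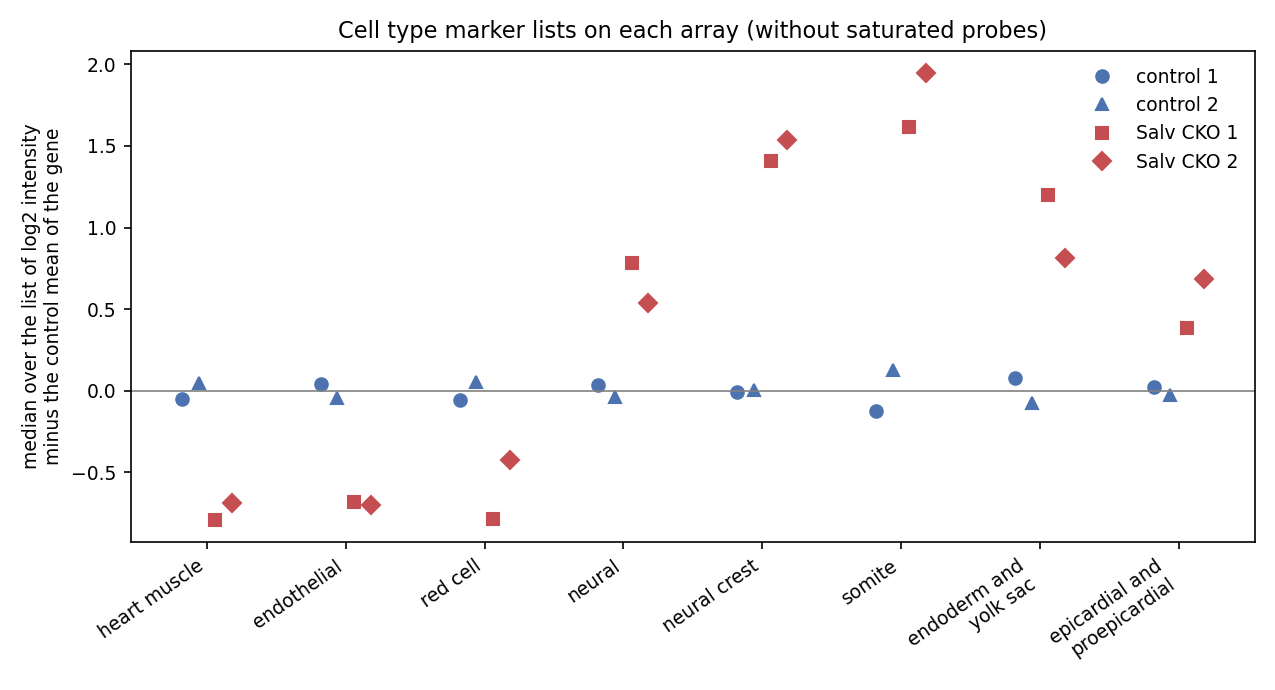
Median over each cell type marker list, without saturated probes, of the log2 intensity (quantile normalised) minus the gene's control mean, with a point for each array. The Salv CKO arrays lie below the controls for heart muscle, endothelial and red cell markers (-0.79 to -0.43) and above them for the other lists (0.39 to 1.95), though the epicardial list's median difference is -0.01 as deposited.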

How the data were processed

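The 4 columns of the deposited value table hold probe intensities on a linear scale, per the file headers named by sample. Per the labels' protocols, RNA was amplified with amino-allyl nucleotides and coupled to Cy5. The sources used here give no scanner, background method, scaling or software. Between 3.37 and 5.99% of the deposited values per array lay below 0. The columns were quantile normalised, floored at 1 and put on the log2 scale. The platform's gene table named 21020 probes with 1 symbol and left 8902 unnamed; it names no genome build. Each gene was tested on its brightest probe (highest mean over the 4 arrays) with limma 3.58.1 in R 4.3.3 (lmFit, eBayes with an intensity trend, two-sided), Benjamini-Hochberg adjusted over 16675 genes at 0.05. Other probes were tested in the same fit over 29922 probes. The fit was tested on simulated data. Precision is limited by the number of arrays.

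The members, lists and rules were chosen with earlier results of these data known. The rule for named genes took every member, Sav1, up to 3 called genes in each direction with the largest difference per list of regulators, partners and targets (above background on all 4 arrays), and the 3 genes most like each called member; marker lists, for which the rule named 2 genes each, are given whole. Alternatives were 3 other scalings, a floor or an added value of 16, filters on dim genes, the mean of a gene's probes, eBayes without trend or robust, a replicate block and leaving out each array.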

Additional observations from a re-analysis of the deposited data

How the results depend on the processing

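Differences of Wwtr1 (brightest probe), Tead3, Vgll4, Amot and Amotl1 kept their direction under each of 15 alternatives, except that the mean of its 3 probes put Wwtr1 at 0.061. Of the others, Yap1 and Amotl2 turned with the values as deposited (-0.24 and -0.23). With 1 array left out, Tead2 ranged from -0.084 to 0.0047, Tead1 from -2.09 to 0.26 and Tead4 from -1.33 to 1.48; with a floor of 16 the last 2 had no value. Members called lower numbered 2 with median centring, with the 75th percentile and under both filters on dim genes, 4 as deposited, and 0 with the floor of 16, the mean of probes or no intensity trend. Members called higher numbered 1 with the floor of 16 and under both filters (Amotl2). With any array left out 0 members and 0 genes were called in either direction (limma; 1378 to 1717 genes higher and 1633 to 1926 lower at an unadjusted p under 0.05), and without the intensity trend 0 as well (1681 and 1897). Genes called higher and lower were 821 and 951, against 543 and 1835 with median centring, 229 and 3101 as deposited, 253 and 228 with the floor of 16, and 1239 and 1437 with genes above 16 on all arrays. They were 824 and 1205 with the 75th percentile and 558 and 666 with the mean of probes. With genes above 16 on both arrays of a group they were 1230 and 1383 of 13451. Calls higher and lower also moved in the lists: regulators gave 1 and 8 with median centring and 1 and 13 as deposited, partners of Yap and Tead 3 and 6, then 1 and 12, and partners of angiomotins 3 and 5, then 1 and 7. Of all genes, 3.26% were called higher and 11% lower with median centring, and 1.37% and 18.6% as deposited. The cause of the changes between settings was not tested. With genes above 16 on all arrays fewer genes were adjusted over (12402), and standard errors moved as well. That of Vgll4 went from 0.0883 to 0.105 and that of Amotl2 from 0.0659 to 0.0827.

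The titles number the pools 1 and 2 in each group. Deviations of same-numbered pools from their group means had a correlation of 0.17 over 12402 genes, which with 2 pairs does not settle a pairing. With the replicate block, members called stayed at 0 higher and 1 lower (Vgll4, adjusted p = 0.0346), and all genes gave 1016 and 1195.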
